A study of Mus musculus with 2 samples.

Results

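The 3 TGFβ ligand genes (*Tgfb1*, *Tgfb2*, *Tgfb3*), the 3 receptor genes (*Tgfbr1*, *Tgfbr2*, *Tgfbr3*), the latent TGFβ-binding protein gene *Ltbp1* and the integrin genes *Itgb6*, *Itgb8* and *Itgav* were followed across the cell classes of mouse cholangiocarcinoma (CCA). They were chosen by symbol, and all 10 were found among the 32589 genes listed in both scRNA-Seq libraries. Tumors had been induced by HDTVI, the hydrodynamic injection of plasmids into the tail vein, with plasmids for NICD (active Notch) and myr-AKT (active AKT kinase). Both groups were shYT mice, in which shRNAs that target *Yap1* and *Wwtr1* (which encodes TAZ), placed downstream of *Col1a1*, depend on doxycycline and on the transactivator rtTA3, driven by the ubiquitous CAG promoter. Doxycycline began on day 25 in both groups. The shYT_PBS group received PBS, and the shYT_antiPD1 group received the anti–PD-1 antibody RMP1-14 on days 26, 29 and 32. Livers of both groups were taken on day 33. Each group is 1 library, and neither the sex nor the age nor the number of animals in it was given by the labels, so no difference below has a replicate check and none was tested. The study's legend gives a number of mice per group, which could not be placed in these libraries, so how many animals a library stands for is not known here. The shRNAs act in any cell with rtTA3 and doxycycline, and both groups carry them, so their own effect was not compared.

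TGFβ is made as a precursor whose propeptide, the latency-associated peptide, stays wrapped around the mature dimer and is tied to the matrix by latent TGFβ-binding proteins. The integrins αvβ6 and αvβ8 (αv is the product of *Itgav*) bind an Arg-Gly-Asp motif in that peptide and free the ligand. Free ligand binds TGFBR2, which recruits and phosphorylates the kinase TGFBR1, and TGFBR1 phosphorylates SMAD2 and SMAD3. TGFBR3 (betaglycan) is a co-receptor that presents ligand, TGFβ2 above all. In liver the pathway is best known for activating collagen-producing fibroblasts and for restraining T cells.

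The codons of the integrin-binding motif are shown because they separate the 3 ligand genes. In the GENCODE vM21 coding sequences on GRCm38, with the codons for Arg-Gly-Asp in capitals, the motif began at codon 244 of 390 in *Tgfb1* and at codon 261 of 412 in *Tgfb3*, in exon 5 of both. The stretches printed, with 9 bases on either side of the motif, span chr7:25697133-25697159 (plus strand) and chr12:86062156-86062182 (minus strand).
Tgfb1: cccaaacgtCGGGGCGACctgggcacc
Tgfb3: gaccatggcCGTGGAGACctggggcgt
None of the 414 codons of *Tgfb2* opened such a run. On the same build *Tgfb2* lies at chr1:186622792-186705989, *Tgfbr1* at chr4:47353222-47414931, *Tgfbr2* at chr9:116084293-116175360, *Tgfbr3* at chr5:107106570-107289629 and *Ltbp1* at chr17:75005568-75392512. *Itgav* (chr2:83724397-83806916) and *Itgb6* (chr2:60598292-60722643) share a chromosome, as do *Tgfb3* and *Itgb8* (chr12:119158022-119238802).

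After filtering, 15531 cells (PBS) and 16360 cells (anti–PD-1) were kept, with medians of 3159 and 2990 UMIs (unique molecular identifiers, counting transcripts). Cells were gated on lists of markers, 6 for each of 19 classes, and 16 classes with at least 50 cells in both libraries were compared. Class names below mean cells that passed these gates. The 2 libraries did not hold cells of the same make-up. *Xist*, the RNA that silences an X chromosome in female cells, had a UMI in 45.7% of PBS cells and in 0.0672% of anti–PD-1 cells, and Y-linked genes in 12.2% and 48.1%. Of the PBS cells, 6686 had an *Xist* but no Y-linked UMI, 1481 had a Y-linked but no *Xist* UMI, and 409 had both. The PBS library thus held cells with either kind of transcript, and the anti–PD-1 library almost only cells with the latter. Treatment and library cannot be told apart, and key values were also taken in cells that had a Y-linked but not an *Xist* UMI (Y-linked cells below). Kept cells of the libraries shared 145 barcodes. Gated tumor/biliary epithelium, which is not separable into tumor cells and normal bile duct cells here, numbered 1298 and 693 cells (8.36% and 4.24%), and gated cancer-associated fibroblasts (CAFs) 380 and 126. In the epithelium *Yap1* was at 10.5 CPM in the PBS and 10.9 CPM in the anti–PD-1 library, and *Wwtr1* at 12.1 and 6.86 CPM.

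Levels are UMIs summed per library and class, given as CPM, that is, scaled so that every class of every library sums to the same total. Ratios are on the log2 scale, with the anti–PD-1 level divided by the PBS level once 5 CPM had been added to both, which draws the ratios of low genes towards 0, and the 95% intervals beside them cover counting error only. A member was measured in a class with at least 20 UMIs over both libraries. Levels are compared within a gene, not between genes. Of 160 pairs of member and class, 113 were measured, and the ratio was below 0 in 81 and above 0 in 32. Most genes leaned the same way. Of all measured genes, 51.9% (CAFs) to 73.5% (neutrophils) were below 0 in a class, except in plasma cells (34.9%). The member ratio was at least 2-fold lower in 6 pairs (5.31%) and at least 2-fold higher in 3 (2.65%). Over all genes 2.66% of 169677 measured pairs were that much lower and 2.69% that much higher. With median-ratio scaling in place of CPM the split was 4 lower and 5 higher, and the share of all genes was not counted under that scaling. *Tgfbr1* made 5 of the lower pairs. The others were *Tgfb2* in T cells not assigned to CD4, CD8 or Treg (other T cells) and, on the higher side, *Tgfb2* and *Ltbp1* in tumor-associated macrophages (TAMs) and *Tgfb3* in type 1 dendritic cells (cDC1).

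The ligands had 3 different distributions. *Tgfb1*, the ligand of most immune cells, was measured in all 16 classes. Among these, in the PBS library, it was highest in monocytes (336 CPM), endothelial cells (293), Kupffer cells (244), Tregs (231) and TAMs (215), and lowest in epithelium (31.7) and plasma cells (15.1). In the anti–PD-1 library Kupffer cells were at 234 CPM, Tregs at 231 CPM and TAMs at 209 CPM, with ratios of −0.06, 0.00 and −0.04. The *Tgfb1* level of macrophages and Tregs was thus nearly the same in both libraries, and the counting interval of Tregs overlapped those of both macrophage classes in each library. TAMs, with 3233 and 1483 cells, held 36.5% and Kupffer cells, with 1479 and 2654 cells, 22.7% of the *Tgfb1* UMIs of the PBS library, against 11.3% and 38.2% of the anti–PD-1 library.

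No class was 2-fold apart in *Tgfb1*, and the ratios ran from −0.52 to 0.71. Monocytes were lower, at 336 CPM in the PBS and 237 CPM in the anti–PD-1 library (ratio −0.49, interval −0.70 to −0.29), and CAFs had a ratio of −0.52. The monocyte gate took cells of different clusters in the 2 libraries, with 87.9% of PBS and 33.2% of anti–PD-1 monocytes in cluster 15, and 1.34% and 54.5% in cluster 7, which also held macrophages. Within cluster 15 monocytes were at 343 and 266 CPM of *Tgfb1* (−0.36, interval −0.65 to −0.09). The cytotoxic lymphocytes lay on the other side. Natural killer and type 1 innate lymphoid cells (NK/ILC1) were at 134 CPM in the PBS and 221 CPM in the anti–PD-1 library (ratio 0.71, interval 0.43 to 0.98), and CD8 T cells were at 109 and 139 CPM (0.33). B cells were likewise higher, at 176 and 222 CPM (0.33). Cells were also grouped into clusters without using the gates. Gated NK/ILC1 cells had a *Tgfb1* ratio of 0.68 within cluster 10 and 0.74 within cluster 16, which held most of them, and all cells of these clusters had ratios of 0.54 and 0.57. Among Y-linked NK/ILC1 cells the difference was smaller, at 189 and 211 CPM on 32 and 196 UMIs (0.16, interval −0.37 to 0.73), while PBS cells with *Xist* were at 125 CPM.

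Among the compared classes *Tgfb2*, the ligand without the motif, was a gene of CAFs, epithelium and endothelial cells. Mesothelial cells, too few to compare, were at 53.9 CPM in the PBS and 35.3 CPM in the anti–PD-1 library (23 and 6 UMIs). CAFs were at 139 CPM in the PBS and 67.5 CPM in the anti–PD-1 library (296 and 52 UMIs, ratio −0.99, interval −1.41 to −0.59). Epithelium was at 90.9 and 47.6 CPM (573 and 118 UMIs, ratio −0.87, interval −1.14 to −0.60), and endothelial cells at 45.7 and 50.8 CPM (0.14). Both of the highest classes of the PBS library were thus lower in the anti–PD-1 library, by 2.06-fold (CAFs) and 1.91-fold (epithelium) in CPM, and neither ratio was past 2-fold once 5 CPM was added, whereas endothelial cells were not, on 86 cells in the anti–PD-1 library. The counting intervals of the 3 classes were apart in the PBS library, and those of endothelial cells and both other classes overlapped in the anti–PD-1 library. Over all kept cells *Tgfb2* was at 19.2 and 7.02 CPM (−1.01), a value that also carries the smaller numbers of CAFs and epithelial cells.

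The lower *Tgfb2* of the epithelium was also seen as a share of cells. After thinning each cell to 1000 UMIs, 8.26% of PBS and 3.94% of anti–PD-1 epithelial cells carried *Tgfb2* (22.5% and 9.96% unthinned, at median depths of 2308 and 1600 UMIs, with 172 and 135 shallower cells left out). CD8 T cells, chosen as a class of low level for comparison since free RNA itself was not measured, had 0.847% and 0.449% at the same depth. The class was not uniform. In cluster 5, which held 46.8% of the epithelium in the PBS and 71.7% in the anti–PD-1 library, gated epithelial cells were at 82.3 and 41.0 CPM (−0.92). Cluster 18 (15.7% and 14.3%) went the other way, at 25.5 CPM in the PBS and 72.4 CPM in the anti–PD-1 library (1.34, interval 0.65 to 2.02). Cluster 14 held 29.2% of the epithelium in the PBS but 2.02% in the anti–PD-1 library, 14 cells, too few to compare within the class. In Y-linked epithelial cells *Tgfb2* was at 100 and 43.8 CPM (−1.11), and in the CAFs of cluster 12, which held over 9 in 10 CAFs of each library, at 139 and 66.5 CPM (−1.01).

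Lymphocytes had little *Tgfb2*, with B cells at 8.44 CPM in the PBS and 2.18 CPM in the anti–PD-1 library and CD8 T cells at 5.72 and 1.57 CPM. The 2-fold lower value of other T cells (8.03 CPM in the PBS and 1.04 CPM in the anti–PD-1 library, ratio −1.11) rested on 33 and 4 UMIs, in a class where 1.82% of all measured genes were that much lower. Markers of CAFs, summed over 6 genes, moved with it, at 72.5 CPM in the PBS and 32.9 CPM in the anti–PD-1 library within other T cells, and markers of epithelium at 224 and 131 CPM. Over the 15 other classes the summed CAF markers were lower in 13 (24.1 to 264 CPM in the PBS, 10.3 to 137 CPM in the anti–PD-1 library), and the summed epithelial markers were lower in 14. The part of these transcripts in the ratio was not tested.

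Among the compared classes *Tgfb3* was foremost a CAF gene, at 213 CPM in the PBS and 149 CPM in the anti–PD-1 library (453 and 115 UMIs, ratio −0.50, interval −0.80 to −0.21). No other compared class of the PBS library exceeded 8.23 CPM. Gated mesothelial cells, too few to compare, were at 134 CPM of *Tgfb3* in the PBS and 100 CPM in the anti–PD-1 library (57 and 17 UMIs). Macrophages had little of it but more in the anti–PD-1 library. Kupffer cells were at 7.62 and 19.0 CPM (103 and 443 UMIs, ratio 0.93, interval 0.72 to 1.13) and TAMs at 4.73 and 14.2 CPM (117 and 110 UMIs, 0.98, interval 0.74 to 1.22). Kupffer cells held 49.4% of all *Tgfb3* UMIs in the anti–PD-1 library, the same share that CAFs held in the PBS library. After thinning, 0.627% and 2.26% of Kupffer cells had a *Tgfb3* UMI (5.41% and 11.2% unthinned, 43 and 222 cells left out), against 0.106% and 0.0749% of CD8 T cells.

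The macrophage difference in *Tgfb3* was present within clusters. In Kupffer cells of cluster 4, which held 48.8% and 50.5% of the class, *Tgfb3* was at 9.78 CPM in the PBS and 22.7 CPM in the anti–PD-1 library (0.91). TAMs of cluster 2 were at 3.87 and 20.7 CPM (76 and 8 UMIs, 1.53, interval 0.63 to 2.37). TAMs of cluster 7 were at 3.08 and 18.5 CPM (2 and 84 UMIs, 1.54, interval 0.50 to 2.15). These clusters held 70.6% and 2.35% of the TAMs of the PBS library against 4.25% and 38.4% of the anti–PD-1 library. Over all cells of macrophage clusters 9 and 22 the *Tgfb3* intervals spanned 0. Among Y-linked cells the Kupffer ratio was 1.47 and the TAM ratio 0.48. The ratio of 1.88 in cDC1, dendritic cells that prime CD8 T cells, came from 3 UMIs in 107 cells and 24 UMIs in 75 cells, up to 7 of them in 1 cell. A *Tgfb3* UMI was found in 2.80% of cDC1 of the PBS and 14.7% of the anti–PD-1 library, at unequal median depths of 7169 and 11322 UMIs. Once thinned, 1 of 103 and 0 of 72 cDC1 had one, and 0 of 72 allows up to 4.17% of cells with a UMI at that depth (3 counts of 72), so no difference could be read from thinned cells. In cDC1 3.97% of all measured genes were at least 2-fold higher.

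**Figure D1:**
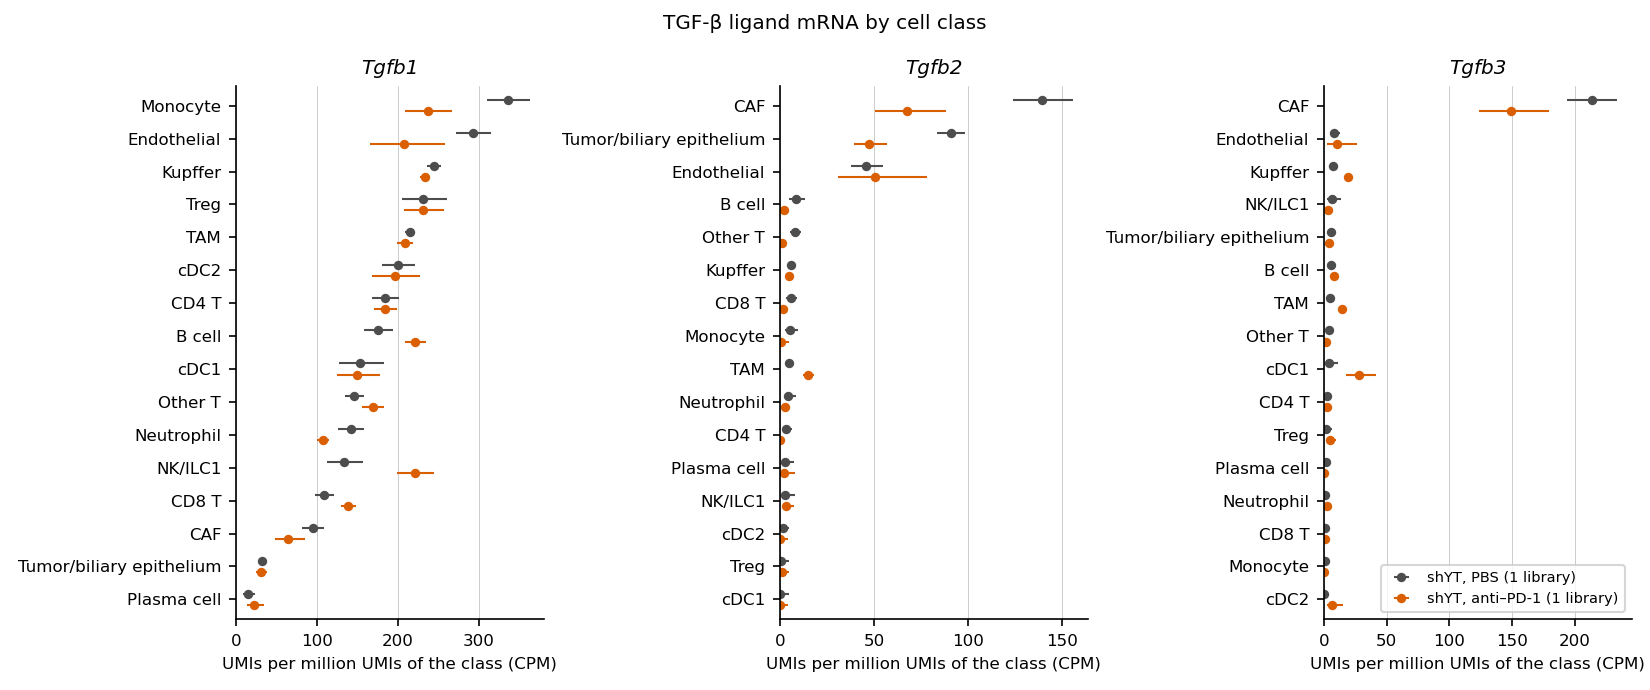
Levels of *Tgfb1*, *Tgfb2* and *Tgfb3* in CPM by gated cell class, 1 point per library with 95% Poisson intervals for counting error. *Tgfb1* spans all immune classes, *Tgfb2* stands out in CAFs, epithelium and endothelial cells and *Tgfb3* in CAFs, where the anti–PD-1 library lies at 149 CPM against 213 CPM.

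LTBP1 anchors latent TGFβ to the matrix. Of the compared classes, its gene *Ltbp1* was highest in CAFs, at 102 CPM in the PBS and 112 CPM in the anti–PD-1 library (0.13). Endothelial cells followed at 32.1 and 17.8 CPM (−0.70, interval −1.66 to 0.22). Mesothelial cells, too few to compare, were at 115 and 41.2 CPM (49 and 7 UMIs). Epithelium was at 19.4 and 7.27 CPM (122 and 18 UMIs, −0.99, interval −1.44 to −0.51). CAFs and epithelium, both lower in *Tgfb2*, were thus unlike in *Ltbp1*. In the epithelium 2 clusters differed more in *Ltbp1* than the libraries did. All cells of cluster 14 were at 48.5 CPM in the PBS and 49.8 CPM in the anti–PD-1 library, and all cells of cluster 5 at 6.59 and 5.31 CPM, and cluster 14 was the one with 14 epithelial cells in the anti–PD-1 library.

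In TAMs *Tgfb2* and *Ltbp1* were both higher in the anti–PD-1 library, *Tgfb2* at 4.69 and 15.1 CPM (116 and 117 UMIs, ratio 1.05) and *Ltbp1* at 4.53 and 15.6 CPM (112 and 121 UMIs, 1.11), where 3.21% of all measured genes were at least 2-fold higher. Few cells carried these UMIs. A set of 6 genes typical of peritoneal macrophages (*Gata6*, *Alox15*, *Serpinb2*, *F5*, *Icam2* and *Selp*, chosen after their values were seen) had a summed level of 38.8 CPM in TAMs of the PBS and 512 CPM in TAMs of the anti–PD-1 library. There, 61 TAMs that had at least 2 of the 6 genes held 106 of 117 *Tgfb2* UMIs and 109 of 121 *Ltbp1* UMIs of the anti–PD-1 TAMs. In the PBS library 34 such TAMs held 29 of 116 *Tgfb2* and 40 of 112 *Ltbp1* UMIs. Within such TAMs *Tgfb2* was at 102 CPM in the PBS and 166 CPM in the anti–PD-1 library, and *Ltbp1* at 141 and 170 CPM. In the remaining TAMs *Tgfb2* was at 3.56 CPM in the PBS and 1.55 CPM in the anti–PD-1 library (−0.39) and *Ltbp1* at 2.95 and 1.69 CPM (−0.25), so both higher values were carried by that small set of cells. *Tgfb3* did not share this, with 4.74 and 15.2 CPM (1.05) in the remaining TAMs. In Kupffer cells the 112 such cells of the anti–PD-1 library held 93 *Tgfb2* and 165 *Ltbp1* UMIs, and *Tgfb3* in the remaining Kupffer cells was at 7.59 and 19.9 CPM (0.98).

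**Figure D2:**
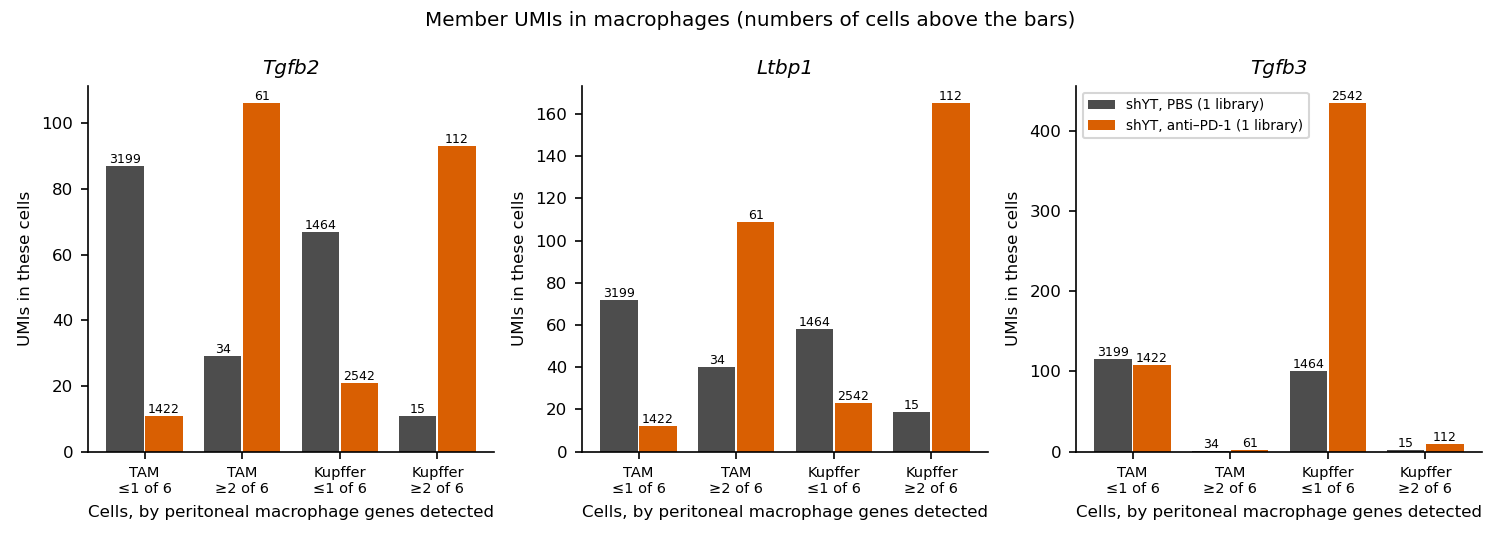
UMIs of *Tgfb2*, *Ltbp1* and *Tgfb3* in macrophages of each library, split by whether at least 2 of 6 peritoneal macrophage genes were detected, with cell numbers above the bars. In the anti–PD-1 library 61 TAMs held 106 of 117 *Tgfb2* UMIs, whereas *Tgfb3* lay in the remaining cells.

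Of the integrin genes, *Itgb6* stood out in epithelium, *Itgb8* in epithelium and regulatory T cells, and *Itgav* was broad. *Itgb6*, whose product pairs only with αv, was at 29.4 CPM in epithelium of the PBS and 27.5 CPM in that of the anti–PD-1 library (185 and 68 UMIs, −0.08), and in the PBS library neutrophils were next at 4.55 CPM. *Itgb8* was highest in epithelium (66.0 CPM in the PBS, 76.3 CPM in the anti–PD-1 library, 0.20, interval −0.04 to 0.43) and in Tregs (65.9 and 58.6 CPM), whose counting intervals overlapped in each library. The small differences of the whole epithelium did not hold in each of its clusters. Epithelial cells of cluster 5 were at 39.9 and 21.3 CPM of *Itgb6* (−0.77, interval −1.23 to −0.31) and those of cluster 18 at 57.7 and 48.3 CPM (−0.23, interval −0.93 to 0.43), while all PBS cells of cluster 14 were at 3.37 CPM. For *Itgb8* cluster 5 was at 87.4 and 70.8 CPM (−0.29, interval −0.59 to 0.01) and cluster 18 at 57.7 and 90.0 CPM (0.60, interval 0.03 to 1.16), and Y-linked epithelium had a ratio of 0.53. Cells gated as CD4 T without a *Foxp3* UMI were lower, at 37.6 and 16.8 CPM of *Itgb8* (96 and 56 UMIs, −0.97, interval −1.37 to −0.56). Of those UMIs, 77 and 50 lay in CD4 T cells of cluster 8, at 78.3 and 35.9 CPM (−1.03). That cluster also held 85.1% of PBS and 86.3% of anti–PD-1 Tregs, which were at 81.3 and 74.1 CPM of *Itgb8* within it. Median depths of the CD4 T class were 2852 and 3589 UMIs.

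*Itgav*, the partner of both, was measured in all 16 classes. Among these it was highest in epithelium, at 154 CPM in the PBS and 155 CPM in the anti–PD-1 library (0.00). Tregs (122 and 146 CPM, 0.25) and CAFs (118 and 109 CPM) followed. Mesothelial cells, too few to compare, were at 178 and 130 CPM (76 and 22 UMIs). The macrophages were lower in the anti–PD-1 library, with 103 and 73.8 CPM in Kupffer cells (−0.45, interval −0.55 to −0.35) and 90.8 and 62.7 CPM in TAMs (−0.50, interval −0.63 to −0.37). Neutrophils were at 58.7 and 38.8 CPM (−0.54). Among Y-linked cells the *Itgav* ratio was −0.02 in neutrophils and 0.44 in epithelium. In no compared class did *Itgav* reach a 2-fold difference.

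*Tgfbr1*, the type I receptor kinase, differed most widely. TAMs were highest in the PBS library at 374 CPM, against 190 CPM in the anti–PD-1 library (9242 and 1475 UMIs, ratio −0.95, interval −1.03 to −0.88), and held 56.3% and 20.8% of all *Tgfbr1* UMIs. Kupffer cells were at 243 and 140 CPM (−0.77, interval −0.84 to −0.70) and neutrophils at 198 and 62.9 CPM (435 and 466 UMIs, −1.58, interval −1.76 to −1.40). Epithelium was at 113 and 38.8 CPM (711 and 96 UMIs, −1.43, interval −1.71 to −1.15) and type 2 dendritic cells (cDC2) at 135 and 47.9 CPM (−1.40, interval −1.86 to −0.96). Monocytes (100 and 43.3 CPM, −1.13) and endothelial cells (38.3 and 15.2 CPM, on 93 and 6 UMIs, −1.10) were the other classes past 2-fold. Of all measured genes, 4.38% were 2-fold lower in neutrophils, 2.21% in epithelium, 5.55% in cDC2, 3.43% in monocytes and 6.68% in endothelial cells.

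The ratio of *Tgfbr1* was below 0 in 15 of 16 classes, with 14 intervals wholly below 0 and a median of −0.72. Class medians of all measured genes lay between −0.25 and 0.18. Of 5235 genes measured in all 16 classes, 8.27% were lower in at least 15, and 0.974% had at least 14 intervals below 0. Plasma cells, with 22.6 CPM in the PBS and 26.1 CPM in the anti–PD-1 library (0.17, interval −0.52 to 0.85), were the class on the other side of 0. Taken whole, the T cell and NK/ILC1 classes lay closer to 0 than macrophages and neutrophils, from −0.28 in NK/ILC1 (interval −0.73 to 0.18) to −0.67 in CD8 T cells. Where clusters replaced the classes, *Tgfbr1* was lower in 23 of the 23 clusters in which it could be compared, of 28 in all, and 22 intervals lay below 0. How many of all genes were lower in as many clusters was not counted.

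Within clusters the size of the *Tgfbr1* ratio varied more than its direction. In epithelial cells of cluster 5 *Tgfbr1* was at 58.9 CPM in the PBS and 28.1 CPM in the anti–PD-1 library (−0.95), and in those of cluster 18 at 73.7 and 52.7 CPM (−0.45, interval −1.10 to 0.18), so neither reached the −1.43 of the whole class. TAMs of cluster 2 were at 394 and 303 CPM (−0.38), TAMs of cluster 7 at 358 and 247 CPM (−0.53) and TAMs of cluster 9, 3.25% and 19.0% of the class, at 1242 and 87.3 CPM (−3.76). The Kupffer gate also drew on different clusters, with cluster 2 holding 34.7% of PBS and 2.15% of anti–PD-1 Kupffer cells and cluster 7 holding 1.08% and 19.5%. Within clusters the Kupffer ratio of *Tgfbr1* was −0.65 (cluster 2), −0.53 (cluster 4) and −1.44 (cluster 9). Neutrophils of cluster 0, 95.3% and 76.4% of the class, were at 211 and 61.5 CPM (−1.70), close to the class. Monocytes of cluster 15 were at 100 and 34.0 CPM (−1.43, interval −2.14 to −0.76). Other T cells had ratios of −1.45 (cluster 8) and −1.20 (cluster 10), but −0.29 in cluster 1 and 0.22 in cluster 6. CD8 T cells ran from −0.82 (cluster 1) to −0.52 (cluster 6). The order of T cells and macrophages seen in whole classes thus did not hold in every cluster. Of 31 pairs of class and cluster with at least 50 cells in both libraries, 29 were lower and 2 higher, 21 intervals lay below 0, and 10 were past 2-fold. The shares of all genes in these pairs were not counted, so these counts have no background beside them.

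The 6 macrophage markers of the gate, none of them at 0 in any class, were summed in the same cells. They were at 955 CPM in neutrophils of the PBS and 1237 CPM in those of the anti–PD-1 library, at 416 and 652 CPM in epithelium and at 525 and 746 CPM in endothelial cells, but at 555 and 475 CPM in cDC2 and at 1572 and 1287 CPM in monocytes. The sum was thus higher in 3 and lower in 2 of the 5 classes in which *Tgfbr1* was 2-fold lower, and the part of macrophage transcripts in the *Tgfbr1* ratios was not tested. Among Y-linked cells, *Tgfbr1* was lower in 8 of 9 classes, with 184 and 58.3 CPM in neutrophils (−1.58), 93.1 and 40.5 CPM in epithelium (−1.11) and 360 and 194 CPM in TAMs (−0.88). NK/ILC1 had a ratio of 0.19. After thinning, 29.9% of PBS and 14.3% of anti–PD-1 TAMs carried *Tgfbr1* (73.7% and 33.6% unthinned, at median depths of 7047 and 3399 UMIs, 166 and 309 cells left out), and 9.41% and 2.87% of epithelial cells did, against 4.17% and 3.17% of plasma cells. Plasma cells numbered only 98 and 71 before shallow cells were left out, so their shares rest on few cells. The epithelial and plasma cell shares of the anti–PD-1 library could therefore not be ranked. In CPM, as given above, epithelium lay above plasma cells in that library.

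**Figure D3:**
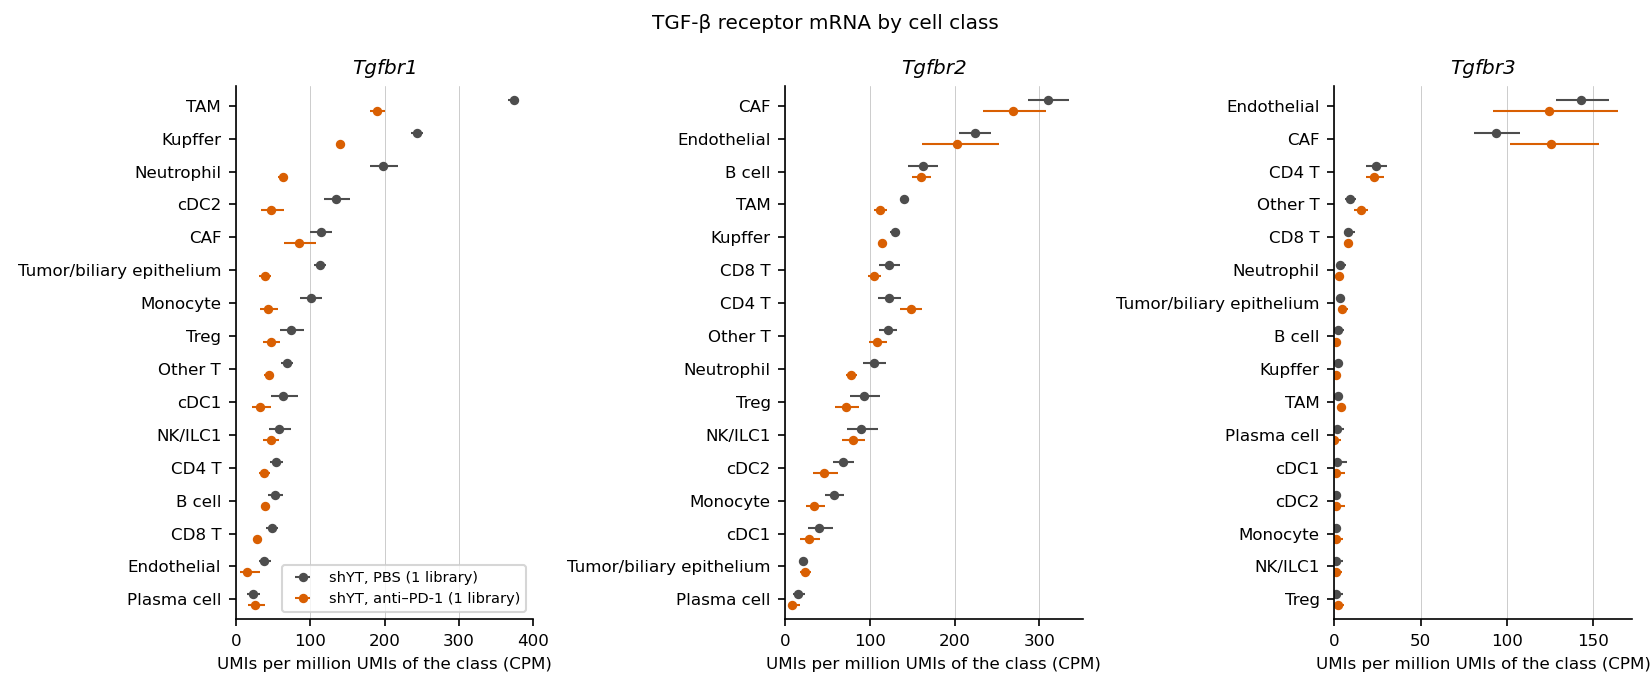
Levels of *Tgfbr1*, *Tgfbr2* and *Tgfbr3* in CPM by gated cell class, 1 point per library with 95% Poisson intervals for counting error. *Tgfbr1* lies lower in the anti–PD-1 library in 15 of 16 classes, as in TAMs (374 and 190 CPM) and neutrophils (198 and 62.9 CPM), while *Tgfbr2* in CAFs lies at 310 and 269 CPM.

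The ligand-binding receptors did not share the size of this difference. *Tgfbr2*, the type II receptor, was below 0 in 14 of 16 classes, but its ratios ran only from −0.66 to 0.26, and 6 intervals lay below 0. The share of genes lower in at least 14 classes was not counted, and 8.27% were lower in at least 15. *Tgfbr2* was highest in CAFs (310 CPM in the PBS, 269 CPM in the anti–PD-1 library) and endothelial cells (223 and 203 CPM), and TAMs were at 141 and 112 CPM (−0.32). Epithelium was low, at 21.4 and 23.8 CPM (0.13), with a ratio of −0.50 in its Y-linked cells. CD4 T cells were the class with an interval above 0, at 123 and 148 CPM (0.26, interval 0.06 to 0.46). This went with 1 of 3 clusters, as CD4 T cells of cluster 6 (18.5% and 26.6% of the class) had a ratio of 0.86 (interval 0.36 to 1.38), those of cluster 8 of 0.14 (interval −0.18 to 0.47) and those of cluster 1 (38.5% and 22.3%) of −0.11. The lowest ratio was that of monocytes, at 57.4 and 34.5 CPM (−0.66), and within cluster 15 they were at 56.0 and 44.6 CPM (−0.30, interval −0.97 to 0.33).

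Among the compared classes *Tgfbr3*, the co-receptor, had its highest levels in endothelial cells (143 CPM in the PBS, 124 CPM in the anti–PD-1 library) and CAFs (93.6 and 126 CPM, 0.41, interval 0.06 to 0.75), with CD4 T cells at 23.9 and 23.1 CPM. It was measured in 9 of them, lower in 5 and higher in 4, and 2-fold apart in none. Mesothelial cells, too few to compare, were at 124 and 23.6 CPM of *Tgfbr3* (53 and 4 UMIs, −2.18, interval −3.56 to −0.90). CAFs, lower in *Tgfb2* and *Tgfb3*, thus had *Tgfbr3* on the other side of 0 and *Tgfbr2* at a ratio close to it.

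**Figure D4:**
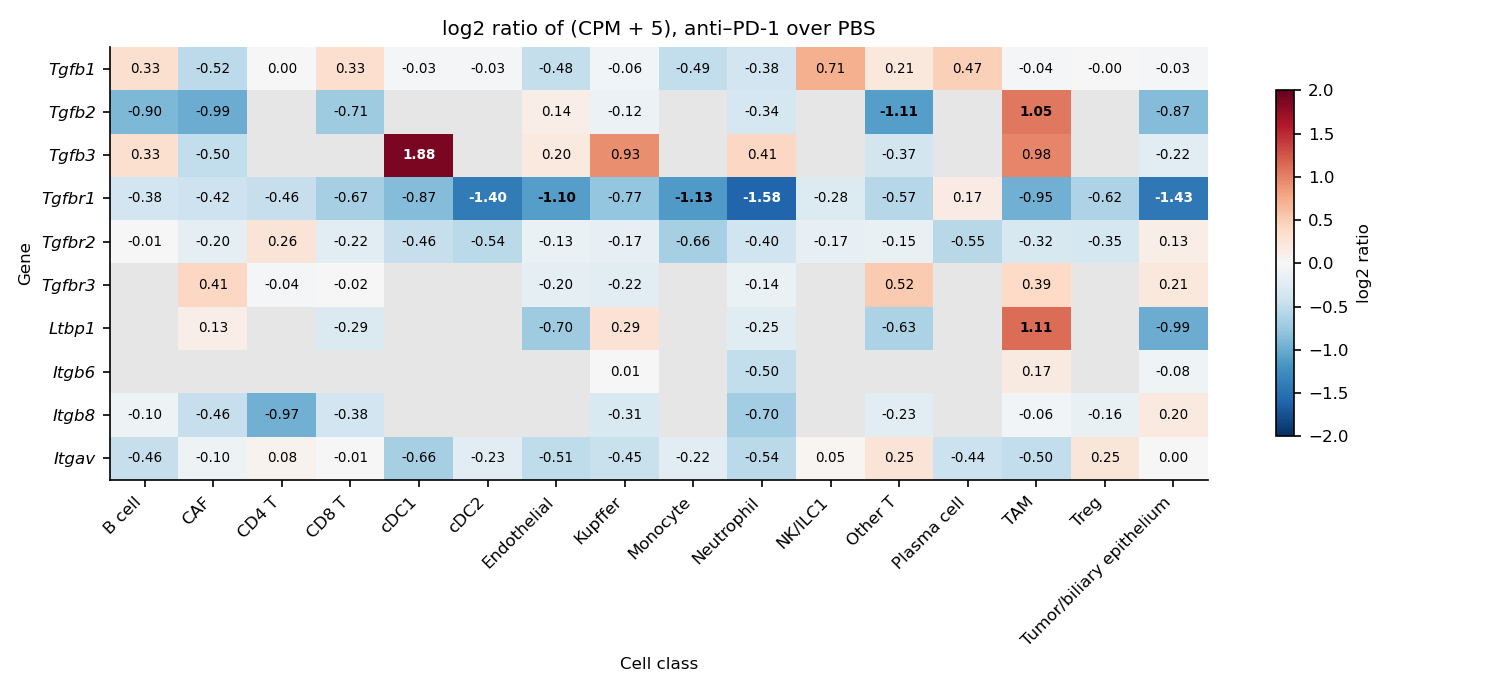
Log2 ratios, anti–PD-1 over PBS with 5 CPM added, of the 10 genes (rows) in 16 cell classes (columns). Grey cells had fewer than 20 UMIs and bold values are past 2-fold. *Tgfbr1* is below 0 in every class but plasma cells.

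Another 40 genes of the pathway, in 5 lists, were read beside the members. Of the latency and activation list, 12 of 91 measured pairs were past 2-fold lower and 12 higher (13.2% each, median −0.18), where over all genes 2.66% of pairs were lower and 2.69% higher by that much. *Thbs1*, whose product thrombospondin 1 can activate latent TGFβ, made 10 of the higher pairs and was above 0 in 13 of 14 classes. It was at 79.1 CPM in TAMs of the PBS and 522 CPM in those of the anti–PD-1 library (2.65), at 290 and 1804 CPM in neutrophils (2.62), and at 547 and 597 CPM in CAFs (0.12). Markers of neutrophils were higher too, in 15 of 15 other classes (20.3 to 381 CPM in the PBS, 176 to 658 CPM in the anti–PD-1 library), and their part in *Thbs1* was not tested. *Mmp14*, the gene of a membrane-bound matrix protease, made 8 of the lower pairs and was below 0 in 15 of 15 classes, with 44.3 and 18.2 CPM in cDC2 (−1.08). The share of all genes on the same side of 0 in as many classes was not counted for *Thbs1* or *Mmp14*. *Lrrc32* encodes GARP, which displays latent TGFβ on Tregs. It was at 16.9 CPM in Tregs of the PBS and 137 CPM in those of the anti–PD-1 library (20 and 208 UMIs, 2.70, interval 2.15 to 3.25).

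The co-receptor list had 6 of 72 pairs past 2-fold lower and none higher (8.33%, median −0.25), and the signal transducers 4 of 83 lower and none higher (4.82%, median −0.16), against 2.66% lower and 2.69% higher over all genes. *Eng*, the endothelial co-receptor endoglin, made 4 of the former. In endothelial cells, where it is best known, it was at 2460 CPM in the PBS and 2300 CPM in the anti–PD-1 library (−0.09). *Smad5*, a transducer of BMP signals, was at 65.4 and 22.8 CPM in endothelial cells (−1.34), on 159 and 9 UMIs.

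The feedback inhibitors split, with 11 of 129 pairs past 2-fold lower (8.53%) and 14 higher (10.9%, median 0.00), beside 2.66% and 2.69% of pairs over all genes. *Tgif1*, a repressor of SMAD-driven transcription, was above 0 in 16 of 16 classes and past 2-fold in 10, with 38.8 CPM in CD4 T cells of the PBS and 172 CPM in those of the anti–PD-1 library (2.01) and 62.7 and 148 CPM in epithelium (1.18). *Pmepa1*, which TGFβ induces and which holds back its signal, was below 0 in 16 of 16 classes and past 2-fold in 9. Epithelium had 568 CPM of *Pmepa1* in the PBS and 166 CPM in the anti–PD-1 library (3577 and 410 UMIs, −1.75). This value, like the other epithelial values of the lists, is of the whole class. As given above, the clusters that made up that class differed between the libraries. *Smad7*, the inhibitory SMAD, was above 0 in 13 of 15 classes and nowhere past 2-fold. Genes of one list that TGFβ is known to induce thus lay on both sides of 0. How many of all genes lay on the same side of 0 in as many classes as *Tgif1*, *Pmepa1* or *Smad7* was not counted. Of genes measured in all 16 classes, 8.27% were lower in at least 15.

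The response genes stood furthest from 0, with 52 of 146 pairs past 2-fold lower (35.6%) and 3 higher (2.05%) and a median of −0.71. Over all genes these shares were 2.66% and 2.69%, so the higher pairs of the list were close to the share of all genes. Most of the lower pairs lay outside CAFs and epithelium, which held 2 each. B cells held 7, Tregs and other T cells 6 each and neutrophils 5. The list was chosen with earlier results of these data known. In CAFs the list had a median of −0.64 against −0.02 over all genes, and in epithelium of −0.69 against −0.04. *Acta2* and *Tagln*, contractile genes of activated fibroblasts and smooth muscle, led. In CAFs *Acta2* was at 3205 CPM in the PBS and 384 CPM in the anti–PD-1 library (6815 and 296 UMIs, of which 10 cells held 38.9% and 77.7%, −3.04) and *Tagln* at 3155 and 466 CPM (−2.75), while *Col1a1* had a ratio of 0.00 and *Fn1* of −0.03 (both picked after their values were seen). *Ltbp2*, of the latency list, was at 439 and 158 CPM in CAFs (−1.44).

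In other T cells and epithelium *Acta2* came from still fewer cells of the PBS library. Other T cells were at 262 CPM in the PBS and 6.27 CPM in the anti–PD-1 library (−4.57), and 10 cells of the PBS library held 1022 of its 1076 UMIs. Epithelium was at 157 and 5.65 CPM (−3.93), with 88.1% of 991 UMIs in 10 cells. CAF markers moved with these values, as given above for other T cells, and were at 51.6 and 35.5 CPM in epithelium. Their part in the response list was not tested. TAMs had a median of 0.09 over the list, against −0.07 over all genes.

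**Figure D5:**
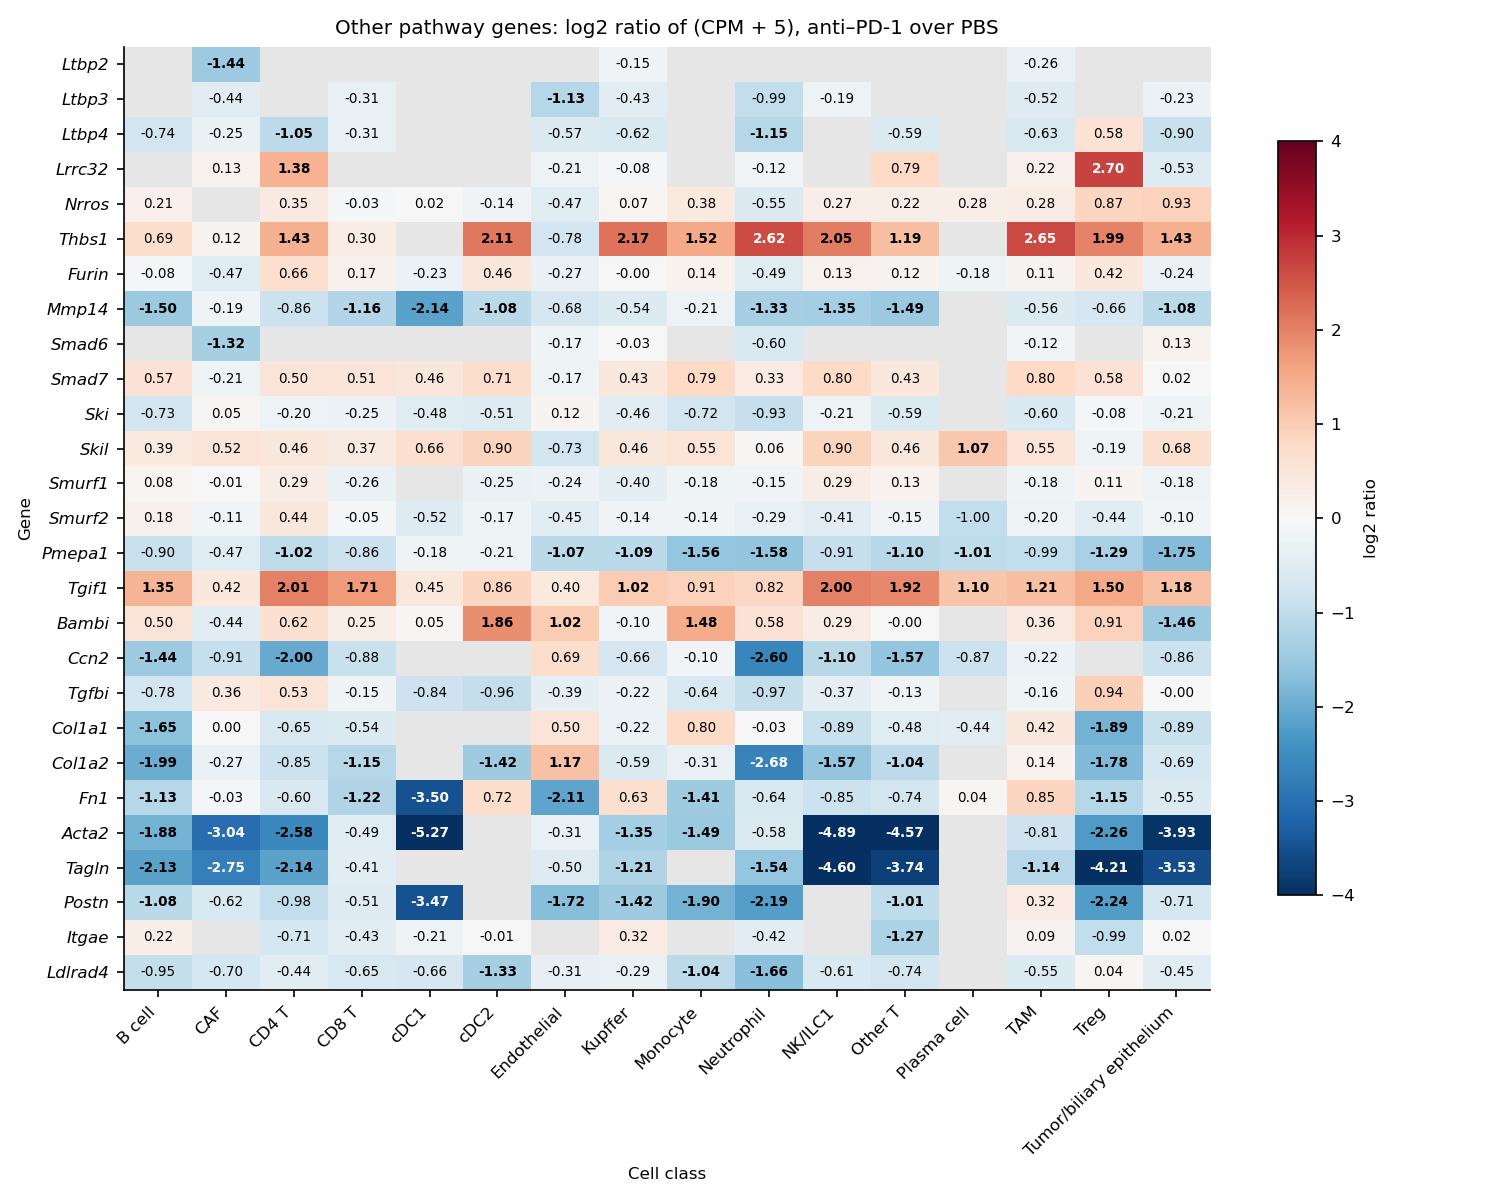
Log2 ratios, anti–PD-1 over PBS with 5 CPM added, of genes (rows) from the latency and activation, feedback inhibitor and response lists in the gated classes (columns), with grey for fewer than 20 UMIs and bold for values past 2-fold. *Thbs1* and *Tgif1* lie above 0 in most classes, *Pmepa1* below 0 in all 16, and the response genes mostly below 0.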

How the data were processed

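Single cells were measured in 2 Singleron GEXSCOPE libraries of digested CCA-bearing liver (labelled tissue), after lysis of red cells and removal of debris and dead cells. The files deposited by the authors hold raw UMI counts per gene and barcode, made by the authors with the Singleron software against mm10; its version, annotation and strand handling are not given in the sources used here, so overlapping genes are uncertain. Totals were 121713441 UMIs in 19397 barcodes (shYT_PBS) and 100807037 in 19451 (shYT_antiPD1). Barcodes were kept from 500 to 5000 detected genes and up to 10% UMIs of mitochondrial genes, as in the study's methods; its Seurat 4.3 normalization and integration were not repeated.

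A cell took the class with the most detected markers, at least 2 and 1 more than any other class; 10.7% and 12.6% stayed ungated. Macrophages with a *Clec4f* UMI were Kupffer cells and the others TAMs, and T cells were divided by *Foxp3*, then CD8 and CD4 genes. UMIs were summed per library and class. With 1 library per group no test was made. Ratios used a pseudocount of 5 CPM and a minimum of 20 UMIs, with intervals from the exact binomial split; levels had exact Poisson and shares exact Clopper-Pearson intervals. Clusters came from Leiden clustering of both libraries together (2000 variable genes, 30 components, 15 neighbours, resolution 1; scanpy 1.11.5, leidenalg 0.10.2, igraph 0.11.9). Other tools were Python 3.11.15, numpy 2.4.6, pandas 2.3.3, scipy 1.17.1 and matplotlib 3.10.9. The steps were tested on simulated data. Scrublet's automatic threshold marked 0 cells in both libraries and so did not work; doublets were kept, and leaving out the 5% highest scores was an alternative. Gene identifiers were matched to GENCODE vM21 (32522 of 32589, 99.8%); 100 symbols occur more than once.

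The members, markers and pathway lists were chosen with earlier results of these data known. All members are named; of the other pathway genes, up to 3 highest and 3 lowest past 2-fold are named per class. *Eng* and *Smad7* were added after their values were seen. A gene of the response list enters its counts and is not reported here by itself.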

Additional observations from a re-analysis of the deposited data

Results flagged for a closer look

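The ratios of *Tgfb2* in TAMs and in other T cells pointed in opposite directions, which drew attention to them. *Tgfb2* was at 4.69 CPM in the PBS and 15.1 CPM in the anti–PD-1 library in TAMs (1.05) and at 8.03 and 1.04 CPM in other T cells (−1.11), a difference of 2.16 on the log2 scale. The difference was not tested, as each group is 1 library. Both values rested on few UMIs, 116 and 117 in TAMs and 33 and 4 in other T cells. In TAMs the ratio was below 0 in 4 of 13 alternatives, down to −0.39 without the cells carrying peritoneal macrophage genes, and in other T cells it was below 0 in 9 of 9 alternatives and past 2-fold in 6 of them, with −0.42 by clusters.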

How the results depend on the processing

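No paired analysis was possible because each group is 1 library, and for the same reason no replicate could be left out. Scrublet's own threshold left out no cell, so leaving out its doublets gave no value. In epithelium the count of members past 2-fold lower was 1; it was 2 with a gate of at least 3 markers, with at most 1 marker of any other class, with a pseudocount of 1 CPM and in Y-linked cells, and 3 by clusters and with 200 to 6000 genes and 20% mitochondrial UMIs. Over all classes the lower count of 6 was 12 with that wider cell filter and 14 with a pseudocount of 1 CPM. The higher count of 3 was 5 with the stricter gate and with median-ratio scaling, 6 with a pseudocount of 1 CPM, and 1 with at most 1 other marker and as a mean over cells. The share of all genes past 2-fold was not counted under these settings. The counts of the alternatives therefore cannot be set against the shares of all genes given above. The *Tgfb2* ratio in epithelium, −0.87, was −1.18 by clusters and −1.44 with the wider cell filter.

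The ratio of *Tgfb2* in TAMs turned to −0.044 with at most 1 other marker, −0.020 as a mean over cells, −0.33 with macrophages split by 6 Kupffer cell genes and −0.39 without cells carrying peritoneal macrophage genes; that of *Ltbp1* turned to −0.024 and −0.25 in the last 2 settings. The last 2 and the doublet scores were chosen after seeing the data. *Tgfbr1* was past 2-fold lower in every alternative with a value in neutrophils (11), epithelium (12, from −1.68 to −1.11) and cDC2 (7), in 8 of 9 in monocytes and 7 of 9 in endothelial cells. No alternative kept the clusters of the epithelium apart. The *Tgfbr1* ratio was −0.95 and −0.45 in gated epithelial cells of clusters 5 and 18, and −0.74 over all cells of cluster 14. Depth limits *Tgfb2*, *Tgfb3* and *Ltbp1* in lymphocytes and dendritic cells.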

Other observations

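Over 32 points (16 classes in 2 libraries) the genes most like each ligand by Pearson's r, out of 13839 with at least 200 UMIs, were *Auts2* (0.963), *Nfib* (0.952) and *Osmr* (0.947) for *Tgfb2*, *Lpar1* (0.916), *Ptgis* (0.901) and *Clmp* (0.893) for *Tgfb3*, and *Wasf2* (0.883), *Tln1* (0.880) and *Ncoa3* (0.878) for *Tgfb1*. The points share libraries, cell classes and depth, so these are descriptions.

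In 3 of the classes too small to compare, those with at least 20 UMIs of *Tgfbr1*, its ratio was below 0. Mature dendritic cells were at 88.2 CPM in the PBS and 22.5 CPM in the anti–PD-1 library (−1.76), plasmacytoid dendritic cells at 198 and 134 CPM (−0.54, interval −1.13 to 0.02), and mesothelial cells at 65.6 and 11.8 CPM, on 28 and 2 UMIs. The macrophages of cluster 25, 16 cells in the PBS and 109 in the anti–PD-1 library, had 248 and 167 CPM of *Tgfb2* and 487 and 229 CPM of *Ltbp1*.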
